A study of Homo sapiens with 8 samples.

Results

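The change of RNA levels between 6 and 9 h of Nutlin-3a was measured in IMR90, an established line of human lung fibroblasts, by setting the 2 libraries made at 9 h against the 2 made at 6 h. Every gene row of the table was considered. A gene was kept if its normalized count (reads divided by a size factor of the library) reached at least 10 in at least 2 of the 8 libraries of the series, which left 14074 of 18216 genes, and the 4142 others were not tested. All 8 libraries came from cells at passage 28, which the labels describe as primary lung fibroblasts, and polyA RNA was read. The cells carried no engineered change that the labels name and were kept in 3% oxygen. Both groups compared had received Nutlin-3a at 3 µg/mL, and they differed in the time in the compound. A DMSO group and a 12 h group, again of 2 libraries each, gave reference points. A single cell line was used. The hours for which DMSO was given and the clock time of each harvest have no statement in the labels, so time in Nutlin-3a and time in culture cannot be told apart. Nothing in the labels says that replicates were separate cultures. P-values therefore measure only the spread between these libraries, which may be technical.

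Nutlin-3a occupies the pocket of MDM2 that normally binds p53. MDM2 is a ubiquitin ligase that keeps p53 low, so p53 builds up when the contact is blocked and activates its target genes without DNA damage. Among those targets is CDKN1A, whose product p21 inhibits cyclin-dependent kinases. With those kinases inhibited, RB family proteins and the DREAM complex silence E2F genes of S phase and the genes of mitosis.

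From 6 to 9 h the RNAs of mitosis and DNA replication genes fell further, those of ATF4-linked amino acid genes fell back, and those of endoplasmic reticulum chaperones, of several matrix genes and of a subset of p53 targets rose. In all, 1199 genes rose (8.52% of those tested) and 1393 fell (9.9%), so that 2592 (18.4%) were called at a Benjamini-Hochberg adjusted p under 0.05 by limma. Most of these changes were small, with a median of 0.31 among genes that rose and −0.32 among genes that fell on the log2 scale. Only 28 genes rose and 37 fell at least 2-fold, and 153 rose and 259 fell at least 1.5-fold. The median change of all tested genes was 0.0016 after the authors' scaling by size factors. For 8554 genes (60.8%) the 2 libraries of one time lay wholly above the 2 of the other, a criterion that is easily met with pairs. The counts rest on all 4 libraries. Without 6 h replicate 1 or 2, 700 or 643 genes rose and 761 or 888 fell, and without 9 h replicate 1 or 2, 579 or 582 rose and 845 or 768 fell. Without DMSO replicate 1 or 2, 1881 or 1888 rose and 2041 or 2038 fell, and the DMSO pair, which enters the common error, had the widest spread. The SD of the log2 difference between replicates was 0.174 in DMSO against 0.129 at 6 h and 0.119 at 9 h, over 11461 genes. At 6 h the libraries held 21.9 and 28.6 M reads in genes, and at 9 h 27.7 and 30.02 M.

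**Figure D1:**
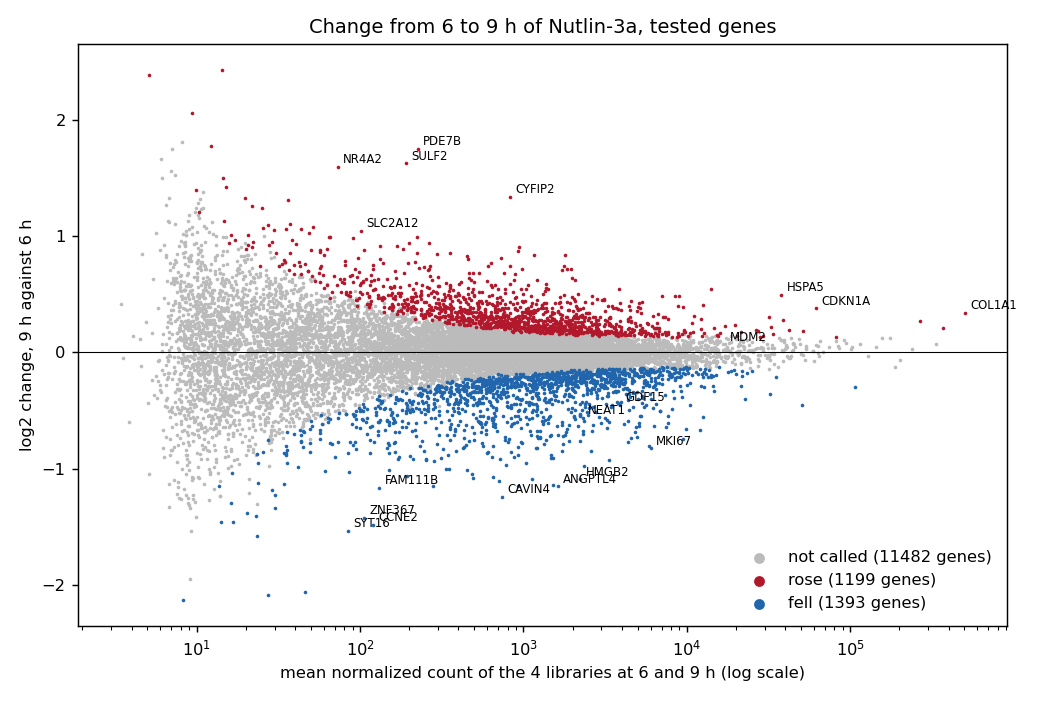
Log2 change at 9 h against 6 h (vertical) by the mean normalized count of the 4 libraries (horizontal, log scale), 1 point per gene, red for the 1199 genes that rose, blue for the 1393 that fell and grey for the rest. Called changes are mostly under 1 log2 unit, and at high counts changes of about 0.2 were called.

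Among genes with a mean of at least 50, the largest rise was that of PDE7B, a phosphodiesterase that degrades cAMP. Its normalized counts were 110.1 and 96.1 at 6 h and 338 and 361 at 9 h, a 3.39-fold difference (log2 1.75 ± 0.10, adjusted p = 9.64e-10). At 6 h PDE7B lay below the DMSO libraries (353 and 332), at 9 h it overlapped them, and at 12 h it lay above them (516 and 584). NR4A2, an orphan nuclear receptor that is an early response gene, took a similar course. Its counts were 128 and 124 in DMSO, 30.02 and 42.3 at 6 h and 113 and 107 at 9 h, and 199.7 and 224 at 12 h (9 h against 6 h, log2 1.59 ± 0.16, adjusted p = 4.43e-07). SULF2, an enzyme that trims sulfates from heparan sulfate outside the cell, had counts of 92.6 and 93.2 at 6 h and 287 and 291 at 9 h (log2 1.63 ± 0.14, adjusted p = 8.30e-08) and only 18.6 and 13.97 in DMSO. CYFIP2, a subunit of the WAVE complex that drives actin branching, had counts of 483 and 449 at 6 h and 1198 and 1164 at 9 h (log2 1.34 ± 0.086, adjusted p = 2.15e-09). SULF2 and CYFIP2 thus rose from a level already above DMSO, whereas PDE7B and NR4A2 rose from one below it.

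Several regulators of transcription were among the 12 largest rises. SOX5, an SRY-box factor, had counts of 36.3 and 51.9 at 6 h and 89.6 and 84.96 at 9 h (log2 0.99 ± 0.18, adjusted p = 0.000579), against 80.1 and 87.02 in DMSO. IKZF2, a zinc-finger factor of the Ikaros family, had counts of 143 and 155 at 6 h and 285 and 308 at 9 h (log2 0.99 ± 0.12, adjusted p = 5.37e-06), against 248 and 333 in DMSO. GLIS1, a Krüppel-like zinc-finger factor, rose by 0.99 ± 0.17, with counts of 38.8 and 47.1 at 6 h and 88.6 and 83.1 at 9 h. In all 3 genes both 6 h libraries lay below DMSO, and the 9 h libraries were close to it (106 and 101 for GLIS1). The glucose transporter gene SLC2A12 rose by 1.04 ± 0.15, from 60.04 and 72.1 to 129 and 144, and HECW1, a ubiquitin ligase gene, by 1.08 ± 0.20, from 33.8 and 31.7 to 80.7 and 61.2. SCN2A, a sodium channel subunit, had counts of 140.1 and 131 at 6 h and 249 and 274 at 9 h and lay above DMSO (75.3 and 70.9) at both times. INPP5D, which encodes the lipid phosphatase SHIP1, had counts of 58.8 and 62.5 at 6 h and 122 and 119.7 at 9 h (log2 0.99 ± 0.24, adjusted p = 0.00681), against 1.95 and 4.30 in DMSO. The INPP5D call was lost without an intensity trend, without either replicate of 9 h and without 6 h replicate 1 (log2 0.94 to 1.003).

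Among the falls, the largest was that of SYT16, a member of the synaptotagmin family, with counts of 129 and 124 at 6 h and 44.8 and 41.1 at 9 h (log2 −1.54 ± 0.21, adjusted p = 1.71e-05). It had been 23.5 and 32.2 in DMSO, so the 9 h libraries lay near the starting level. CAVIN4, a caveola protein of muscle, went from 1037 and 1030.1 to 418 and 456 (log2 −1.24 ± 0.083), and ANKRD1, an ankyrin repeat protein and target of YAP, from 2004 and 2164 to 985 and 903 (−1.14 ± 0.074). ANGPTL4, a secreted inhibitor of lipoprotein lipase, went from 2213 and 2249.5 to 1071 and 938 (−1.15 ± 0.081). TRIB3, a pseudokinase induced by ATF4, went from 1277 and 1262 to 554 and 591 (−1.15 ± 0.083). In these 5 genes the 6 h libraries were the highest of the series. The other large falls were of genes already below DMSO at 6 h. CCNE2, which encodes cyclin E2, had counts of 758 and 845 in DMSO and 186 and 169 at 6 h and 57.8 and 68.5 at 9 h (log2 −1.48 ± 0.13, adjusted p = 9.75e-08). ZNF367, a zinc-finger factor, had 687 and 781 in DMSO and 150.1 and 158 at 6 h and 59.7 and 53.9 at 9 h (log2 −1.42 ± 0.15, adjusted p = 6.73e-07). FAM111B, a protease, WDR76, a WD-repeat protein, and HJURP, the chaperone that loads the centromeric histone CENP-A, fell by 1.17, 1.15 and 1.10. HMGB2, a chromatin protein, fell by 1.09 and LMNB1, lamin B1 of the nuclear envelope, by 1.09. LMNB1 had counts of 1489.7 and 1575 at 6 h and 761 and 679.7 at 9 h, against 3709 and 3718 in DMSO.

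**Figure D2:**
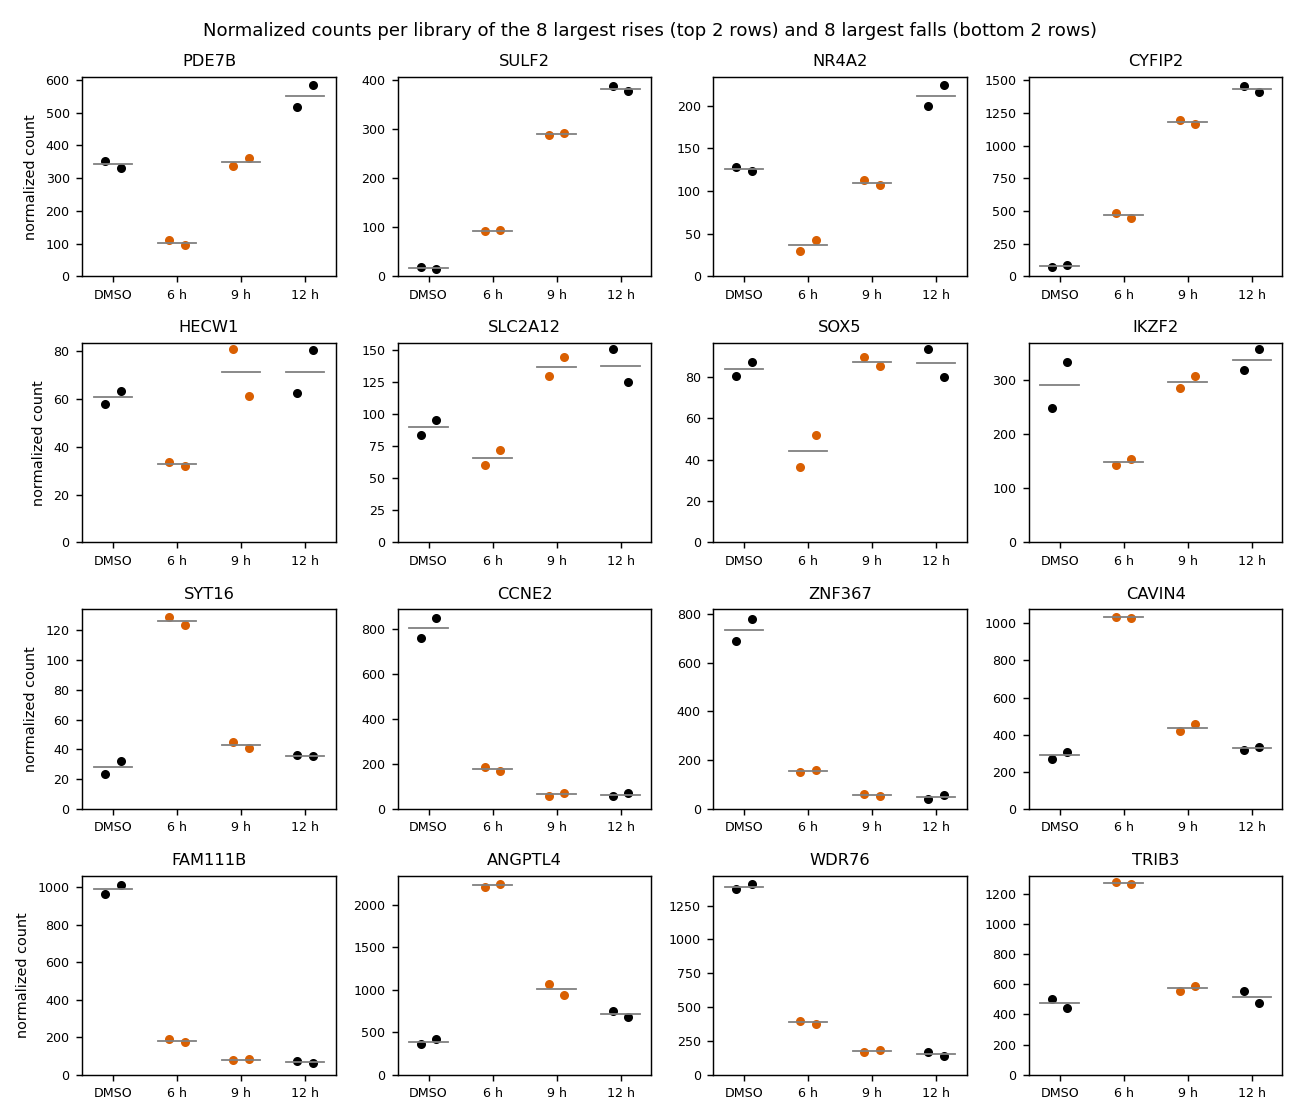
Normalized counts (vertical, linear from 0) of the 8 largest rises and the 8 largest falls among genes with a mean of at least 50, in each library by group, 6 and 9 h in orange, with the group mean as a line. In every panel the orange pairs of 6 and 9 h do not overlap, and SYT16, CAVIN4, ANGPTL4 and TRIB3 are highest at 6 h.

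The p53 targets moved in both directions between 6 and 9 h. Over all tested genes 8.52% rose and 9.9% fell. MDM2, the target that closes the feedback loop, had counts of 17569 and 15770.5 at 6 h and 17498 and 17468 at 9 h (log2 0.071 ± 0.060, adjusted p = 0.477), and the pairs overlapped. CDKN1A had counts of 52553 and 54207 at 6 h and 68941 and 69997 at 9 h, a 1.30-fold rise (log2 0.38 ± 0.044, adjusted p = 3.12e-06) on a level of 4954 and 4670.0 in DMSO. GDF15, a secreted stress cytokine, fell in the same interval, from 4587 and 4450.0 to 3247 and 3370.0 (log2 −0.45 ± 0.059, adjusted p = 1.44e-05). Of 23 tested targets in arrest and feedback, 6 rose and 4 fell, with a median of −0.039 (3 to 6 rose with 1 library left out, fewest without 6 h replicate 2 or 9 h replicate 2 and most without either DMSO library or 9 h replicate 1 or either 12 h library). SESN2, a sestrin that restrains mTORC1, fell by 0.31, with counts of 2098 and 2300.4 at 6 h and 1772 and 1764 at 9 h. SESN1, its paralog, had a log2 change of −0.070 ± 0.067 and the antiproliferative gene BTG2 one of −0.042 ± 0.061, neither called. The mean of this list relative to DMSO was 1.61 and 1.58 at 6 h and 1.56 and 1.63 at 9 h, and these pairs overlapped.

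Targets in cell death were more often up than down, against 8.52% risen and 9.9% fallen of all tested genes. Of 21, 8 rose and 2 fell (median 0.073; 5 to 8 rose with 1 library left out, fewest without either 6 h library or either 9 h library and most without either DMSO library). TP53I3, an oxidoreductase, had counts of 1457 and 1511 at 6 h and 2389 and 2501 at 9 h (log2 0.72 ± 0.054, adjusted p = 1.22e-08), and SPATA18, a mitophagy factor, 733 and 642 at 6 h and 1043 and 1148 at 9 h (log2 0.67 ± 0.077, adjusted p = 2.46e-06). TNFRSF10D, a decoy receptor for TRAIL, rose by 0.48 ± 0.043 and BAX, a pore-forming BCL2 family member, by 0.27 ± 0.050. The signalling death receptors FAS (0.095 ± 0.052) and TNFRSF10B (0.073 ± 0.044) were not called. BBC3, which encodes the BH3-only protein PUMA, fell by 0.38 from 638 and 649 to 488 and 503, and PMAIP1, which encodes NOXA, fell by 0.22 (adjusted p = 0.0293). The call of BBC3 was lost without 9 h replicate 1 (log2 −0.35), and that of PMAIP1 after quantile normalization, without an intensity trend and without either replicate of 6, 9 or 12 h (log2 −0.27 to −0.16). The 2 members that fell are both BH3-only genes, whereas those that rose include receptors, BAX and mitochondrial factors.

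Of 19 targets in metabolism and autophagy, 6 rose and 0 fell (median 0.16; 4 to 10 rose with 1 library left out, fewest without 9 h replicate 1 and most without either DMSO library). FDXR, the ferredoxin reductase of mitochondria, had counts of 1099 and 1063 at 6 h and 1503 and 1570.3 at 9 h (log2 0.51 ± 0.066, adjusted p = 1.27e-05). ISCU, a scaffold for iron-sulfur clusters, rose by 0.38 ± 0.054. Each count here is to be set beside the 8.52% of all tested genes that rose and the 9.9% that fell. In DNA repair 2 of 9 rose, namely DDB2, a sensor of ultraviolet lesions (0.36 ± 0.061), and RRM2B, a ribonucleotide reductase subunit (0.38 ± 0.061), and 1 fell. Of 27 targets in matrix, signalling and other roles, 11 rose and 4 fell (median 0.13; 7 to 14 rose with 1 library left out, fewest without 6 h replicate 1 or either 9 h library and most without either DMSO library), and PDE7B, SULF2 and CYFIP2 were the highest. Of these, PDE7B lay below DMSO at 6 h and overlapped it at 9 h, unlike SULF2 and CYFIP2. Whether p53 drives the rise of PDE7B was not tested. CMBL, a hydrolase, had counts of 851 and 815 at 6 h and 1434 and 1555 at 9 h (log2 0.84 ± 0.069, adjusted p = 3.35e-08). The cytokine gene LIF fell by 0.45 and HBEGF, an EGF receptor ligand, by 0.43. The p53-linked long non-coding RNAs split, with 1 of 10 risen and 3 fallen, against 8.52 and 9.9% of all genes. NEAT1, a paraspeckle gene, had counts of 2833 and 2673 at 6 h and 1863 and 1859.9 at 9 h (log2 −0.56 ± 0.065, adjusted p = 2.46e-06). These counts are of polyA RNA and do not separate the isoforms of NEAT1. TP53TG1 had 225 and 224 at 6 h and 309.7 and 329.8 at 9 h (0.51 ± 0.093).

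**Figure D3:**
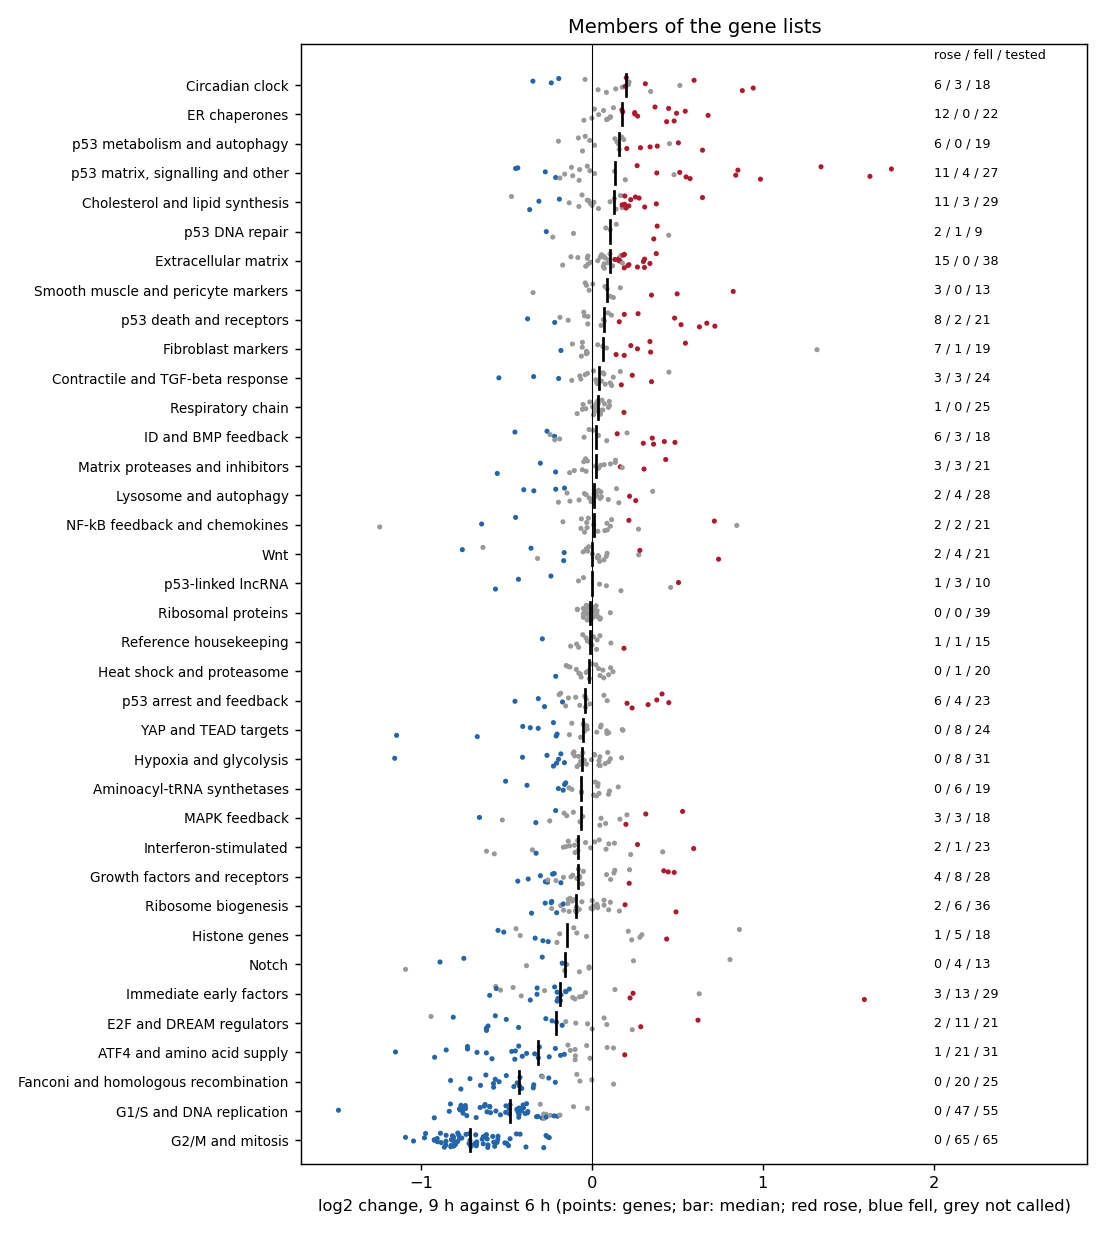
Log2 change at 9 h against 6 h (horizontal) of the tested members of each gene list with at least 9 tested members (rows, ordered by median), 1 point per gene, red if it rose, blue if it fell and grey if not called, with the median as a bar and the counts at the right. All 65 G2/M genes lie below 0, while the p53 lists spread to both sides.

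Cell-cycle genes gave the most uniform change. All 65 tested genes of G2/M and mitosis fell, with a median of −0.71 and a range of −1.09 to −0.25, against 9.9% of all genes and a median of 0.0016. Relative to DMSO the list mean was −0.69 and −0.67 at 6 h and −1.37 and −1.38 at 9 h. MKI67, which encodes the proliferation marker Ki-67, had counts of 7686 and 7679 at 6 h and 4531 and 4150.1 at 9 h, 1.77-fold lower (log2 −0.82 ± 0.054, adjusted p = 2.18e-09). ASPM, a protein of spindle poles, had 3137 and 3126 at 6 h and 1590.2 and 1586 at 9 h (log2 −0.98 ± 0.050, adjusted p = 4.20e-10) and CENPF, a kinetochore protein, 7561 and 7393 at 6 h and 4414 and 4128 at 9 h (log2 −0.81 ± 0.048, adjusted p = 9.64e-10). CCNA2 (cyclin A2) went from 2234 and 2215 to 1219 and 1244 and CCNB1 (cyclin B1) from 3218 and 3285 to 2016 and 2056, falls of 0.85 and 0.68. In each of these genes both 9 h libraries lay below both 6 h libraries. From these bulk libraries, fewer cycling cells and less of these RNAs per cell cannot be told apart.

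Of 55 tested genes of G1/S and DNA replication, 47 fell and 0 rose (median −0.48), and the other genes had values between −0.30 and −0.025. The list mean relative to DMSO was −1.07 and −1.06 at 6 h and −1.58 and −1.58 at 9 h. MCM2, MCM3 and MCM4 are subunits of the replicative helicase. MCM2 went from 1172 and 1261 to 721 and 699.8 (log2 −0.77 ± 0.061, adjusted p = 2.23e-08), MCM3 from 1686 and 1754 to 1051 and 989 (−0.75 ± 0.056) and MCM4 from 2393 and 2407 to 1392 and 1431 (−0.77 ± 0.052). RRM2, the S-phase subunit of ribonucleotide reductase, went from 5541 and 5513 to 3190.4 and 3287 (−0.77 ± 0.047), opposite in direction to its p53-induced counterpart RRM2B. Of 25 Fanconi and homologous recombination genes, 20 fell and 0 rose (median −0.42). The shares over all tested genes were 9.9% fallen and 8.52% risen. RAD51AP1, a recombination factor, fell by 0.83, the end-resection factor RBBP8 by 0.58 and FANCI by 0.57.

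The regulators of these genes were less uniform. Of 21 E2F and DREAM genes, 11 fell and 2 rose (median −0.21), against 9.9 and 8.52% of all tested genes. E2F1, an activator of S-phase genes, had counts of 553 and 556 at 6 h and 314 and 318 at 9 h (log2 −0.81 ± 0.076, adjusted p = 2.02e-07). E2F7, an E2F repressor that p53 induces, went from 3908 and 3611 to 2619.9 and 2463 (−0.56 ± 0.056), after 2472 and 2599 in DMSO. FOXM1, an activator of mitotic genes, fell by 0.43, a call lost without an intensity trend (log2 −0.43). MYBL1, a MYB family factor, was one of the 2 that rose, with counts of 1616 and 1634 at 6 h and 2484 and 2516 at 9 h (log2 0.62 ± 0.056, adjusted p = 9.81e-08), and it lay between the 6 h level and that of DMSO (3969 and 4407). The other was LIN52, a MuvB subunit (0.29 ± 0.097, adjusted p = 0.0458), whose call was lost without a filter on low values, with edgeR, with DESeq2, with the replicate block and without either replicate of 6, 9 or 12 h (log2 0.25 to 0.32). CCND1 (cyclin D1) had a log2 change of 0.11 ± 0.045 and MYC one of −0.056 ± 0.060, and neither was called.

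Promoters of some of these genes are printed because short elements were frequent there in the lists that fell most. The RefSeq table (GRCh38.p14) gave the window from 250 bases before to 50 bases after the start for 11153 tested genes. Both strands were searched for CCAAT, the box bound by NF-Y, for TTTGAA, the core of the cell-cycle homology region at which DREAM is known to act, and for an E2F-like core, spelled as TTGGCGC or TTCCCGC or TTTGGCG or TTTCCCG. Capitals mark CCAAT and TTTGAA in ASPM (chr1:197146620-197146919, minus strand) and MKI67 (chr10:128126374-128126673, minus strand), and the E2F-like core in MCM3 (chr6:52284693-52284992, minus strand) and E2F1 (chr20:33686336-33686635, minus strand), each on either strand (ATTGG and TTCAAA are the reverse complements).
ASPM: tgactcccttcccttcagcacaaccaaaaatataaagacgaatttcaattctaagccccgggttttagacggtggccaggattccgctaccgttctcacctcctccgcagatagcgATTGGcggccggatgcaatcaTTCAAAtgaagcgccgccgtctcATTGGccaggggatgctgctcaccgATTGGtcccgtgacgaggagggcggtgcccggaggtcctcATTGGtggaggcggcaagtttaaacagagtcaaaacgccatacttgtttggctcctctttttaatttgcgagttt
MKI67: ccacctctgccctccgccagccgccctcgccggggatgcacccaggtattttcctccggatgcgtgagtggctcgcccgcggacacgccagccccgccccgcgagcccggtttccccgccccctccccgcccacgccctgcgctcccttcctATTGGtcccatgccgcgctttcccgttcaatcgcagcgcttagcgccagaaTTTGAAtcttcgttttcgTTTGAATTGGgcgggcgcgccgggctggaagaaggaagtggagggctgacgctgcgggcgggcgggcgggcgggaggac
MCM3: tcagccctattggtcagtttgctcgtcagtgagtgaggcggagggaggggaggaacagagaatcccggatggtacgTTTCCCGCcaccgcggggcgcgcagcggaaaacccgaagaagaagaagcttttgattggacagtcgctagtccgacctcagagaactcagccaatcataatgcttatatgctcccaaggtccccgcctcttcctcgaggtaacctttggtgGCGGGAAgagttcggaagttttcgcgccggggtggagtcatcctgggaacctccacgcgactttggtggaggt
E2F1: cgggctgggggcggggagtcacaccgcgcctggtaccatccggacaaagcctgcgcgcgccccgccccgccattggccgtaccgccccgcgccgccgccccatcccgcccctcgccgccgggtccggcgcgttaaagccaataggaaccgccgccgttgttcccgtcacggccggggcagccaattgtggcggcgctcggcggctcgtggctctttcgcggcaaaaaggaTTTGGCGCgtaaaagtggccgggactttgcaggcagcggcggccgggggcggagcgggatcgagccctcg
In MKI67 a TTTGAA and a reversed CCAAT share a base, and in MCM3 and E2F1 overlapping spellings of the core form a single run. MCM3 and E2F1 also hold CCAAT and MKI67 an E2F-like core, which are not in capitals. Of 58 G2/M promoters in the table, 41 (70.7%) held CCAAT, 40 (68.97%) TTTGAA and 31 (53.4%) both. Over all tested genes the shares were 36.3, 9.87 and 4.05%. CCAAT was not particular to lists that fell. It was in 85.7% of 21 endoplasmic reticulum chaperone promoters and 71.4% of 21 cholesterol and lipid synthesis promoters, but in 25.9% of 27 extracellular matrix promoters. Of 46 G1/S promoters, 32 (69.6%) held an E2F-like core and 2 TTTGAA, against 19.4% of all promoters with the core. Among genes with a mean of at least 50 that fell at least 1.5-fold, 26.4% of 178 promoters held TTTGAA and 37.1% an E2F-like core. Among those that rose as much the shares were 15.3 and 14.1% of 85. A match describes the letters of the window and was not tested as a site.

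Most genes of the ATF4 programme, which supplies amino acids and is switched on by the integrated stress response, fell from 6 to 9 h. Of 31 tested members, 21 fell and 1 rose (median −0.31), against 9.9 and 8.52% of all tested genes. The list mean relative to DMSO was 0.50 and 0.57 at 6 h and 0.19 and 0.19 at 9 h, and 0.052 and 0.031 at 12 h, so the group was highest at 6 h. SLC7A11, the cystine importer, had counts of 3479.7 and 3153 at 6 h and 1855 and 1814 at 9 h (log2 −0.85 ± 0.065, adjusted p = 1.47e-08), against 1821 and 2115 in DMSO. MTHFD2, a mitochondrial enzyme of one-carbon metabolism, had 6143 and 6213 at 6 h and 3781 and 3683 at 9 h (log2 −0.73 ± 0.056, adjusted p = 1.43e-08), against 3511 and 4014 in DMSO. DDIT4, an inhibitor of mTORC1 that p53 also induces, fell by 0.41 and remained above DMSO. ATF4 itself, named after its values were seen, had counts of 5268 and 5642 at 6 h and 3903 and 3977 at 9 h (log2 −0.47 ± 0.059, adjusted p = 7.91e-06). The member that rose was SLC38A2, an amino acid transporter (0.19 ± 0.058), a call lost without an intensity trend, without either replicate of 9 or 12 h and without 6 h replicate 2 (log2 0.13 to 0.23). Of 19 aminoacyl-tRNA synthetases 6 fell (2 to 8 fell with 1 library left out, fewest without either 9 h library and most without either DMSO library), TARS (threonine) by 0.50 and CARS (cysteine) by 0.38, while after quantile normalization 2 fell and 1 rose.

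Chaperones of the endoplasmic reticulum went the other way. Of 22 members, 12 rose and 0 fell (median 0.18), against 8.52 and 9.9% of all tested genes. After quantile normalization 15 rose. The list mean was 0.043 and 0.030 at 6 h and 0.27 and 0.28 at 9 h relative to DMSO, with the DMSO libraries at −0.026 and 0.026, so the 6 h pair lay close to DMSO and the 9 h pair above it. HSPA5, which encodes the chaperone BiP, had counts of 31474 and 31208 at 6 h and 43702 and 44691 at 9 h, a 1.41-fold rise (log2 0.50 ± 0.042, adjusted p = 4.98e-08). HYOU1, an HSP70-like exchange factor, had 5705 and 5996 at 6 h and 8166 and 8171 at 9 h (log2 0.48 ± 0.047, adjusted p = 3.18e-07) and HERPUD1, a membrane factor of the degradation of misfolded proteins, 2499 and 2646 at 6 h and 3576 and 3449 at 9 h (log2 0.45 ± 0.052, adjusted p = 2.58e-06). SDF2L1 rose by 0.68 ± 0.084 and the BiP co-chaperone DNAJB9 by 0.55 ± 0.073, both named after their values were seen. Cytosolic heat shock and proteasome genes gave few calls, as 0 of 20 rose and only SQSTM1, an autophagy receptor, fell (−0.21 ± 0.042). The 2 stress programmes thus moved in opposite directions in the same libraries.

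The element known to direct these chaperone genes is the endoplasmic reticulum stress element, CCAAT followed after 9 bases of any kind by CCACG, at which NF-Y and ATF6 are known to bind. It was searched for after the rise had been seen. It is shown in capitals, with the spacer in lower case, in HSPA5 (chr9:125241294-125241593, minus strand) and, reversed, in CRELD2 (chr22:49918384-49918683, plus strand), a member named after its promoter was searched.
HSPA5: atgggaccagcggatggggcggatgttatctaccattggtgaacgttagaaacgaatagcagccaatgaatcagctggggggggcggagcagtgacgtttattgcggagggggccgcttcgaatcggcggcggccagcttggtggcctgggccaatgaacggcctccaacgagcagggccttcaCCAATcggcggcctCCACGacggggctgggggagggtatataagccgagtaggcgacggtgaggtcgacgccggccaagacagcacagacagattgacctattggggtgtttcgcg
CRELD2: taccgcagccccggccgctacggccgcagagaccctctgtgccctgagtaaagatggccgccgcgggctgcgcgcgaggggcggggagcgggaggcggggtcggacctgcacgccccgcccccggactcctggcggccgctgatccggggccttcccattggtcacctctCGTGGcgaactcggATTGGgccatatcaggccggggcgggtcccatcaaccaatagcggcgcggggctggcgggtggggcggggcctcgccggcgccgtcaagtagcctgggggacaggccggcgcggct
Only 14 of 11153 promoters (0.126%) held it, 6 of 21 on the chaperone list. Of the 14 genes, 8 rose and 0 fell, against 8.52 and 9.9% of all tested genes, with log2 changes between −0.069 and 0.50. CRELD2 had counts of 1245 and 1191 at 6 h and 1457 and 1475 at 9 h (log2 0.27 ± 0.056, adjusted p = 0.00183). FICD, which modifies BiP and was not on the list, also held the element and rose by 0.47 ± 0.096. In the 26 promoters of the ATF4 list in the table, TGATGNAAT, a core bound by ATF4, was found in 0, against 0.448% of all promoters, which says only that these letters are not in this window.

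**Figure D4:**
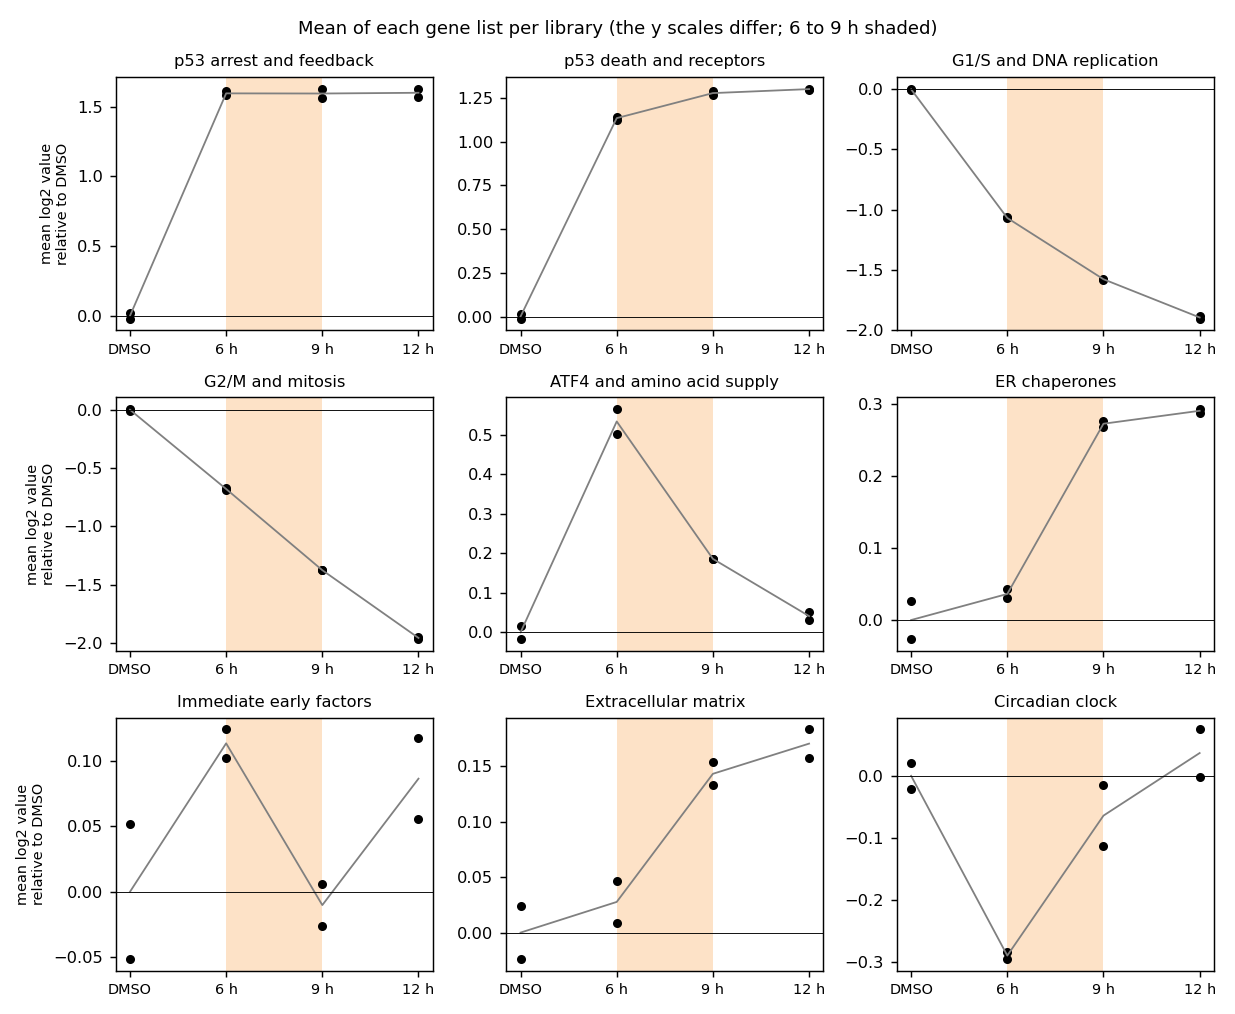
Mean log2 value of 9 gene lists relative to the DMSO mean (vertical, scales differ between panels) in each library by group (horizontal), with group means joined by a line and the interval from 6 to 9 h shaded. Within the shaded interval the G1/S and G2/M lists fall, ATF4 genes fall back towards DMSO, and endoplasmic reticulum chaperones rise.

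Immediate early genes, which respond to growth factors, fell more often than they rose. Of 29 tested, 13 fell and 3 rose (median −0.18), with 9 and 3 after quantile normalization (6 to 17 fell with 1 library left out, fewest without 6 h replicate 2 or 9 h replicate 2 and most without DMSO replicate 2). KLF2, a Krüppel-like factor, had counts of 1205 and 1271 at 6 h and 848 and 831 at 9 h (log2 −0.56 ± 0.085, adjusted p = 7.38e-05) and CTGF, a matricellular growth factor, 35643 and 36584 at 6 h and 28593 and 27692 at 9 h (log2 −0.36 ± 0.044, adjusted p = 5.12e-06). Against the majority NR4A2 rose, as given above, as did EGR1 (0.22 ± 0.060), whose call was lost without an intensity trend, without either replicate of 9 h and without 6 h replicate 2 (log2 0.16 to 0.24). Feedback inhibitors of MAP kinase signalling split, with 3 risen and 3 fallen of 18, against 8.52 and 9.9% of all genes. ERRFI1, an inhibitor of the EGF receptor, had counts of 12079 and 11972 at 6 h and 7773 and 7479.9 at 9 h (log2 −0.66 ± 0.045, adjusted p = 5.00e-09), which brought it back to near DMSO (7189 and 7525). SPRY4, a Sprouty protein, fell by 0.33, and DUSP10, a phosphatase of p38 and JNK, rose by 0.53 ± 0.055, from 1091 and 1134 to 1597 and 1618. Of 24 YAP and TEAD targets 8 fell and 0 rose (median −0.049), ANKRD1 most, and F3, the initiator of coagulation, by 0.40. PTGS2, the inducible cyclooxygenase, went from 679 and 653 to 342 and 289.6 (log2 −1.08 ± 0.095, adjusted p = 7.88e-08).

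In developmental signalling, 4 of 13 Notch genes fell and 0 rose (1 to 7 fell with 1 library left out, fewest without 6 h replicate 1 or 9 h replicate 2 and most without either DMSO library). Over all tested genes 9.9% fell and 8.52% rose, to be set beside each count here. HES4, a Notch target and repressor, had counts of 250.2 and 275 at 6 h and 159 and 125 at 9 h (log2 −0.89 ± 0.13, adjusted p = 4.77e-05). Of 21 Wnt genes 2 rose and 4 fell (1 to 5 fell with 1 library left out, fewest without 6 h replicate 1 or 9 h replicate 2 and most without either DMSO library), WNT16 from 503 and 406 to 697 and 821 (log2 0.74 ± 0.097, adjusted p = 1.36e-05) and LEF1, a nuclear effector, from 144 and 146 to 91.6 and 79.5 (−0.76 ± 0.15). The share of Wnt genes that rose, 9.52%, was near that of all tested genes. Of 18 ID and BMP feedback genes 6 rose and 3 fell. ID2 and ID3, which sequester basic helix-loop-helix factors, rose by 0.35 ± 0.050 and 0.30 ± 0.048. ID1 rose by 0.15 ± 0.051 (adjusted p = 0.0470), close to the threshold, and its call was lost without a filter on low values, without an intensity trend, with DESeq2 and without either replicate of 6, 9 or 12 h (log2 0.10 to 0.19). The secreted antagonists parted: FST (follistatin) rose from 6947 and 7153 to 9722 and 10033 (0.49 ± 0.048) and GREM1 (gremlin 1) fell from 58739 and 58297 to 42963 and 42725 (−0.45 ± 0.043). Of 28 growth factors and receptors 4 rose and 8 fell (3 to 11 fell with 1 library left out, fewest without 9 h replicate 2 and most without either DMSO library). NRG1, an ERBB ligand, rose by 0.48 ± 0.060 and BDNF, a neurotrophin, by 0.42 ± 0.046, while FGF2 fell by 0.37.

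Among inflammatory genes, of 21 NF-kB feedback and chemokine genes 2 rose and 2 fell, and of 23 interferon-stimulated genes 2 rose and 1 fell, against 8.52 and 9.9% of all genes. IL6 went from 230.1 and 238 to 146 and 153 (log2 −0.64 ± 0.12, adjusted p = 0.000691), and BIRC3, an inhibitor of apoptosis, from 87.6 and 93.2 to 149 and 149 (0.72 ± 0.13). The chemokines CCL2 (−0.028 ± 0.088) and CXCL8 (0.011 ± 0.16) were not called. Of 31 hypoxia and glycolysis genes 8 fell and 0 rose (median −0.058; 3 to 10 fell with 1 library left out, fewest without 9 h replicate 1 and most without either DMSO library). VEGFA, an angiogenic factor, had counts of 5805 and 5667 at 6 h and 4471 and 4194 at 9 h (log2 −0.41 ± 0.054, adjusted p = 1.53e-05), and PFKFB3, which raises glycolytic flux, fell by 0.26.

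Several matrix genes rose, by small amounts. Of 38 extracellular matrix genes 15 rose and 0 fell (median 0.10; 7 to 20 rose with 1 library left out, fewest without 9 h replicate 1 and most without either DMSO library), and the list mean was 0.047 and 0.0085 at 6 h and 0.15 and 0.13 at 9 h relative to DMSO. COL1A1, a chain of type I collagen, had counts of 447901 and 437741 at 6 h and 561559 and 559486 at 9 h (log2 0.34 ± 0.052, adjusted p = 7.53e-05) and COL1A2, the other chain, rose by 0.27 ± 0.050. Both calls were lost after quantile normalization (0 for each), which gives the highest ranks the same values in every library, and the list then had 11 risen members and a median of 0.050. FBN1 (fibrillin 1) rose by 0.30 ± 0.045 and POSTN (periostin) by 0.31 ± 0.049. Among proteases and inhibitors 3 of 21 rose and 3 fell, against 8.52 and 9.9% of all genes. PLAT, the tissue activator of plasminogen, fell by 0.55, while ADAMTS1, a matrix protease, rose by 0.43 ± 0.050. Of 19 tested fibroblast markers 7 rose and 1 fell (4 to 8 rose with 1 library left out, fewest without 9 h replicate 2 and most without either DMSO library), TCF21, a mesenchymal transcription factor, rising from 532 and 608 to 830.5 and 833 (0.55 ± 0.072) and PDGFRA, a growth factor receptor, falling by 0.18. The PDGFRA call was lost without an intensity trend, without either replicate of 9 h and without 6 h replicate 1 (log2 −0.19 to −0.14). Summed over the 19 markers in the table the counts were 910468 to 919264 at 6 h and 1079305 to 1089991 at 9 h, a sum in which collagens dominate. The defining fibroblast markers were thus present in every library, as the label says.

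A few single markers of immune, epithelial and endothelial cells were near 0, while the summed lists were not. Other members passed the level filter, 7 of 9 epithelial, 6 of 9 endothelial and 2 of 7 immune markers. All 13 smooth muscle and pericyte markers passed it. PTPRC, which marks immune cells, reached at most 5.77, CDH1 of epithelia 3.75 and CDH5 of endothelia 6.55 in any library, and ESRP1 and CDH5 were at 0 in at least 1. Summed counts of 9 epithelial markers were 5509 to 5711 at 6 h and 5461 to 5472 at 9 h, of 9 endothelial markers 7614 to 7865 and 7705 to 7773, and of 7 immune markers 803 to 911 and 957 to 1021. Those of 13 smooth muscle and pericyte markers were 80234 to 82406 and 87249.9 to 87699, higher at 9 h, and 3 of the 13 rose and 0 fell. Of 7 tested epithelial markers 2 rose and 1 fell, of 6 endothelial 0 and 1, and of 2 immune 1 and 0. Over all tested genes 8.52% rose and 9.9% fell. The immune marker that rose, CD68, lost its call after quantile normalization, without an intensity trend and with DESeq2 (log2 0.244 to 0.255). TEK (endothelial, fell) and KRT7 (epithelial, rose) lost theirs without an intensity trend (log2 −0.25 and 0.21). KCNJ8, a potassium channel of pericytes, rose from 305 and 342 to 602 and 547 (0.83 ± 0.081), and the keratin genes KRT19 (0.77 ± 0.10) and KRT18 (−0.32 ± 0.052) went in opposite directions. The part of these markers in the matrix result was not tested.

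Several clock genes rose from a level below DMSO at 6 h. For comparison, 8.52% of all tested genes rose and 9.9% fell. Of 18 tested members 6 rose and 3 fell (median 0.20; 2 to 7 rose with 1 library left out, fewest without 9 h replicate 1 and most without either DMSO library), and the list mean relative to DMSO was −0.28 and −0.30 at 6 h and −0.015 and −0.11 at 9 h. NR1D1, which encodes the clock repressor REV-ERB alpha, had counts of 362 and 268 in DMSO and 183 and 179 at 6 h and 364 and 333 at 9 h (log2 0.94 ± 0.11, adjusted p = 4.61e-06). TEF, an output factor of the clock, had 294 and 299.7 in DMSO and 154 and 199 at 6 h and 266 and 265 at 9 h (log2 0.60 ± 0.11, adjusted p = 0.000510). PER1, a period gene, had 85.1 and 62.5 at 6 h and 162 and 112 at 9 h (log2 0.88 ± 0.18, adjusted p = 0.00155), and its call was lost without an intensity trend, without 6 h replicate 2 and without 9 h replicate 1 (log2 0.62 to 0.88). CRY1, a cryptochrome, fell by 0.34 (adjusted p = 0.00135). Of 17 clock promoters 5 (29.4%) held CACGTG, the E-box of the clock activators, against 9.96% of all. Other lists had similar shares, with 33.3% of 27 ribosome biogenesis promoters and 30.0% of 20 lysosome and autophagy promoters. TEF and PER1 held it, and NR1D1 and CRY1 did not. Time of day at harvest, which the labels do not state, and time in Nutlin-3a cannot be told apart here.

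Among the remaining groups, cholesterol and lipid synthesis genes rose by small amounts, 11 of 29, with 3 fallen (median 0.13; 3 to 15 rose with 1 library left out, fewest without 6 h replicate 1 and most without either DMSO library). Without an intensity trend 0 of them rose by limma, against 8 by DESeq2. FDFT1, squalene synthase, rose by 0.23 ± 0.052, a call lost without an intensity trend, without 6 h replicate 1 and without 9 h replicate 2 (log2 0.17 to 0.23), while INSIG1, which retains the sterol sensor in the endoplasmic reticulum, fell by 0.36 and ABCA1, a cholesterol exporter, by 0.31, a call lost without an intensity trend (log2 −0.31). Of 36 ribosome biogenesis genes 6 fell and 2 rose (2 to 12 fell with 1 library left out, fewest without 6 h replicate 2 or 9 h replicate 2 and most without either DMSO library), and DDX21, a nucleolar helicase, fell by 0.27. Of 24 contractile and TGF-beta response genes 3 rose and 3 fell, and of 28 lysosome and autophagy genes 2 and 4. Of all tested genes 8.52% rose and 9.9% fell. Histone genes, only some of whose RNAs carry polyA, had 1 risen and 5 fallen of 18. Without an intensity trend 0 rose and 2 fell. H1F0, a linker histone of non-dividing cells well counted in this polyA RNA, fell from 6096 and 6240.2 to 4229 and 4205 (−0.55 ± 0.046). Ribosomal proteins gave no call, with 0 of 39 called and a range of −0.085 to 0.11, and respiratory chain genes few, with 1 of 25 risen and 0 fallen. Of 15 reference genes 1 rose and 1 fell.

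The direction of each change was set beside the 12 h and DMSO libraries, which have no part in the 9 h against 6 h difference apart from the shared error estimate. Of the 1199 genes that rose, 964 (80.4%) were above DMSO at 12 h, 640 of them called, and 235 were below, 74 of them called. Of the 1393 that fell, 1112 (79.8%) were below DMSO at 12 h, 877 called, and 280 above, 115 called. Over all tested genes 51.6% were above and 48.4% below, with 18.5% called as risen and 21.4% as fallen. Genes that rose while staying below DMSO include SLFN11, a restriction factor that sensitises cells to replication stress, with counts of 1794 and 1879 in DMSO, 728 and 762 at 6 h and 1034 and 951 at 9 h and 1116 and 1077 at 12 h. KIT, a receptor kinase, had 319 and 299 in DMSO, 125 and 122 at 6 h and 196 and 207 at 9 h and 201 and 196 at 12 h. GDF15, BBC3 and SESN2 fell while staying above DMSO, with 12 h values of 2734 and 2629, 502 and 509.9 and 1674 and 1631 against 206 and 186, 93.8 and 87.02 and 537 and 509 in DMSO. PHLDA3, an inhibitor of AKT, also fell and stayed above DMSO (−0.17 ± 0.049), a call lost after quantile normalization, without an intensity trend and without either replicate of 6 or 9 h (log2 −0.20 to −0.13).

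Whether the step from 6 to 9 h differed from the step from 9 to 12 h was tested directly as the difference of the 2 steps, which share the 9 h libraries. It was called for 127 genes (0.902% of those tested), 50 with a more positive first step (0.355%) and 77 with a more negative one (0.547%). These calls depend on single libraries and on the error model, for without an intensity trend 0 were called (1362 at an unadjusted p under 0.05), while edgeR gave 130 and DESeq2 106. Without 9 h replicate 1 or 2, 4 or 2 were called, without 6 h replicate 1 or 2, 27 or 26, without 12 h replicate 1 or 2, 29 or 20, and without DMSO replicate 1 or 2, 601 or 610. ERRFI1 changed by −0.66 in the first step and −0.035 in the second (difference −0.62 ± 0.079, adjusted p = 0.000782). NEAT1 fell by 0.56 and then had a change of 0.26 (difference −0.82 ± 0.11, adjusted p = 0.00129). TRIB3 had −1.15 and −0.15 (difference −0.99 ± 0.14) and PTGS2 −1.08 and 0.064 (difference −1.14 ± 0.16). In the positive direction CYFIP2 had 1.34 and 0.28 (difference 1.06 ± 0.15), ATXN1, a transcriptional corepressor, 0.63 and −0.19 (0.81 ± 0.12) and HSPA5 0.50 and 0.10 (0.39 ± 0.073). Of the ATF4 list 7 of 31 members were called, of the chaperones 4 of 22 and of G1/S genes 6 of 55. Of 65 G2/M genes 2 were called, and their medians were −0.71 in the first step and −0.62 in the second.

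Genes that rose had a longer median span on the chromosome than other genes, a feature that was looked at after the values were seen. GENCODE v29 (GRCh38) gave a genomic span, exons and introns together, for 13766 of the 14074 genes. The median span was 52.3 kb for genes that rose, 40.4 kb for genes that fell and 30.4 kb for the rest. Spans over 100 kb made up 32.9% of the genes that rose, 21.1% of those that fell and 18.7% of the rest. With a mean of at least 50 and a change of at least 1.5-fold the shares were 40.2% of 102 genes that rose and 12.96% of 216 that fell. SOX5 spans 1033 kb, SOX6 773 kb, HECW1 453 kb, ATXN1 462 kb and PDE7B 344 kb. SOX6, an SRY-box factor like SOX5, had counts of 432 and 386 in DMSO and 248 and 256 at 6 h and 442 and 468 at 9 h (log2 0.85 ± 0.088, adjusted p = 6.73e-07). Not all rises were of long genes: CDKN1A spans 10.9 kb and HSPA5 6.48 kb. Genes share libraries and are not independent replicates, so the spans are given with no test.

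**Figure D5:**
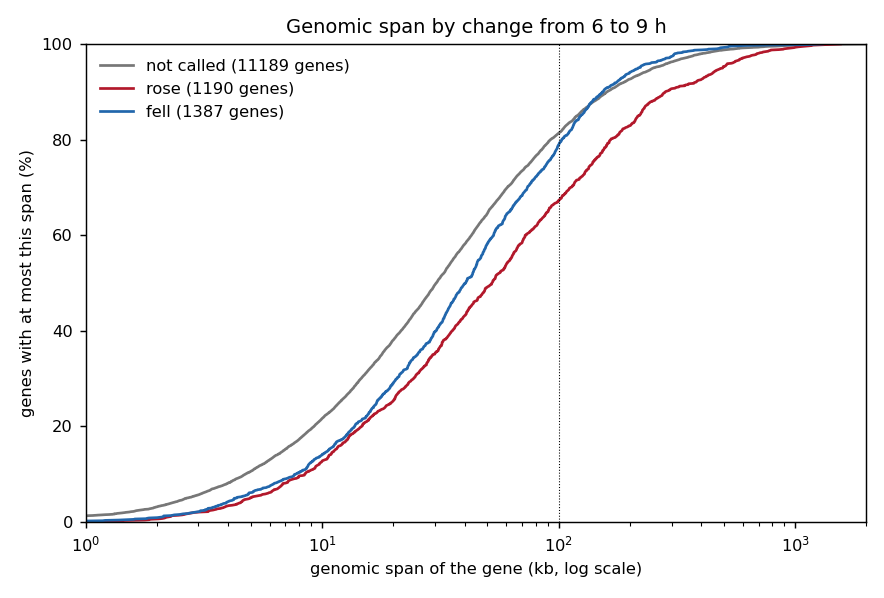
Cumulative share of genes (vertical, percent) by genomic span (horizontal, kb, log scale) for genes that rose, fell or were not called from 6 to 9 h, with a dotted line at 100 kb. The curve of genes that rose lies to the right, with 32.9% of them above 100 kb against 18.7% of genes not called.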

How the data were processed

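PolyA RNA of 8 libraries (DMSO, and 6, 9 and 12 h of Nutlin-3a, 2 each) was sequenced. The authors deposited a table of signal values, counts per gene divided by size factors. Per the submitters' processing notes STAR, DESeq2 and the build hg19 were used, with no versions, and whether strand was counted is not stated, so overlapping and antisense genes cannot be separated. Dividing each column by the worth of a single read gave whole numbers within 1e-06 for 100% of values in every library, and so 21.9 to 33.6 M reads in genes. Entries that name no gene held 28.2 to 29.1% of the reads and were left out. Genes that reached 10 in 2 or more libraries were tested on log2(value + 1) with limma 3.58.1 (R 4.3.3, trended prior), in 1 fit of 8 libraries with 4 residual degrees of freedom, and p-values were adjusted by Benjamini-Hochberg over 14074 genes. Fold changes of low genes are understated on this scale, and errors are standard errors of the fit. A gene is said to have risen or fallen at an adjusted p under 0.05.

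Named genes were the 12 largest changes in each direction with a mean of at least 50, the 3 members of each list with the smallest p and 2 against its majority, a fixed set, the 8 largest step differences in each direction and the 6 largest changes at 12 h against DMSO in each combination of directions. Genes outside this rule are said to be so. Members and lists were chosen with earlier results of these data known. Of 970 symbols on 40 lists 896 were tested, 38 were below the filter and 36 were not matched. Alternatives were pseudocounts of 0.5 and 5, no filter, a mean of at least 50, TMM, quantile normalization, no intensity trend, only 4 libraries, edgeR 4.0.16 and DESeq2 1.42.0 on recovered reads, a replicate block, and each library left out. The script was tested on simulated data. A few genes are not reported here. Promoters are from RefSeq (GRCh38.p14) and spans from GENCODE v29 (GRCh38), matched by symbol, a different build from that of the reads.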

Additional observations from a re-analysis of the deposited data

Results flagged for a closer look

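Of the 185 genes named in all, 40 had a change from 6 to 9 h that differed from their change from 9 to 12 h by the test of the difference between both steps (limma, adjusted p under 0.05). The values in parentheses are the first step minus the second on the log2 scale, with 15 positive and 25 negative. Among genes on the p53 lists the difference was called for CDKN1A (0.34), CMBL (0.59), CYFIP2 (1.06), PDE7B (1.10), SULF2 (1.23), NEAT1 (−0.82) and LIF (−0.54). Among cell-cycle and replication genes the difference was called for ASPM (−0.41), CCNE2 (−1.45), FAM111B (−0.92), HMGB2 (−0.46), LMNB1 (−0.58), MCM4 (−0.46), WDR76 (−0.98) and ZNF367 (−1.13). Among ATF4-linked genes the difference was called for DDIT4 (−0.49), SLC7A11 (−0.68) and TRIB3 (−0.99). Among endoplasmic reticulum chaperones and partners the difference was called for HERPUD1 (0.58), HSPA5 (0.39) and HYOU1 (0.45). Among signalling and growth factor genes the difference was called for ANGPTL4 (−0.68), CTGF (−0.32), ERRFI1 (−0.62), F3 (−0.41), FGF2 (−0.39), FST (0.35), GREM1 (−0.46), HES4 (−0.998), KLF2 (−0.64), PTGS2 (−1.14) and SPRY4 (−0.47). The other differences were those of ADAMTS15 (1.29), ATXN1 (0.81), CAVIN4 (−0.82), IVNS1ABP (0.46), LOC101928841 (1.06), SOX6 (0.88), ST3GAL5 (0.77) and TRPC4 (−1.05). CCNE2, PTGS2 and NEAT1 fell between 6 and 9 h, and the value from 9 to 12 h was near 0 or positive, with −0.035, 0.064 and 0.26. CCNE2 was already well below DMSO at 6 h. In ASPM −0.98 was followed by −0.57. Of the 40 differences, 38 were also called by edgeR, 35 by DESeq2 and 31 after quantile normalization, and 0 without an intensity trend. Without 9 h replicate 1 or 2, 2 or 0 of them were called, without 6 h replicate 1 or 2, 11 or 15, and without 12 h replicate 1 or 2, 18 or 11, and none changed sign under these alternatives. The 9 h libraries enter both steps.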

How the results depend on the processing

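Of the genes named, 163 were called between 6 and 9 h, and 117 of these were called under every alternative. The other 46 lost the call under at least 1, namely 35 without an intensity trend, 15 with DESeq2, 1 with edgeR, 7 after quantile normalization and 38 when a 6 or 9 h library was left out, and none changed direction. Among genes that were not called, CCND1, HSPD1, PSMA3 and RPS19 gained a call under at least 1. The number of genes that rose was 597 and that of genes that fell 740 without an intensity trend, and 786 and 1063 by DESeq2, against 1234 and 1363 by edgeR. A fit of only the 4 libraries at 6 and 9 h gave 1789 and 2013 and can give no step difference. With 1 library left out, 579 to 1888 genes rose and 761 to 2041 fell, lowest without a 6 or 9 h library and highest without a DMSO library, and 2 to 610 steps differed, against 127. The steps that differed numbered 77 after quantile normalization and 0 without an intensity trend. The cause of these shifts was not tested. Libraries of the same replicate number did not deviate together, with correlations of −0.152 to 0.091 between groups (0.007 between 6 and 9 h). With the replicate block 1189 genes rose, 1398 fell and 117 steps differed, and among the named genes LIN52 lost its call. With pairs of libraries the smallest p of an exact permutation test of 1 gene is 0.333, so calls rest on the error shared across genes. A count of 0 allows up to 3 reads, a normalized count of 2.46 to 3.75 by library, and in simulated data for the change from 6 to 9 h (14074 genes, 50 changed at each size) 32% of the smallest changes (under 1.5-fold), 72% of 1.5-fold and 92% of 2-fold changes were recovered.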
